A study of Mus musculus with 90 samples.

Results

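In mouse embryonic stem cells, 1536 autosomal regions carried a peak of the histone methyltransferase Mll2 with each of 2 antisera and a peak of its partner Menin, but no called peak of H3K4me3. They were 7.79% of the 19723 Mll2 regions that both sera shared on the autosomes. A region was the union of overlapping Mll2 peaks, and an overlap of 1 bp counted. Of all 19723 Mll2 regions, 89.2% overlapped a Menin peak and 15.1% overlapped no H3K4me3 peak. These shares of all Mll2 regions are given as background to the selection. The other Mll2 regions comprised 16062 with Menin and H3K4me3, 1436 with neither, and 689 with H3K4me3 but no Menin. The members were selected on called peaks, by their presence or absence in these 5 lists. Since those calls chose them and each antibody other than that against H3K4me3 gave 1 library, the values below are a description without a test.

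Mll2, also called KMT2B, is one of the enzymes of the COMPASS family, which add methyl groups to lysine 4 of histone H3. Its CXXC domain binds unmethylated CpG sites, and Menin is a subunit that the Mll1 and Mll2 complexes share. The trimethyl form, H3K4me3, is best known as a mark of active and bivalent promoters, while elements away from promoters usually carry less of it.

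All 5 libraries were ChIP-seq of the V6.5 embryonic stem cell line grown in serum with LIF. The H3K4me3 libraries, replicates 1 and 3 made with the homemade antibody 28, came from cells infected with a lentiviral hairpin against GFP, a control hairpin. The Mll2 libraries came from wild-type cells with homemade sera 9172 and 9175, and the Menin library was made with an antibody from Bethyl and has no hairpin in its title. The overlap with H3K4me3 therefore compares different cell preparations, and no library of mutant or knockdown cells was used here. The ChIP libraries held 11550409 to 21936546 tags after duplicate removal. A missing peak means that no peak was called at that depth, not that no H3K4me3 was present. The H3K4me3 libraries differed in depth, with 21936546 kept tags in replicate 1 and 12277583 in replicate 3. Without replicate 1 in the H3K4me3 lists the count of regions was 2540, and without replicate 3 it was 1612. With Mll2 and Menin scores of at least 100 it was 296, and with a peak of either serum it was 3872. Of the H3K4me3 lists, the deeper one set the number of members more. It held 24978 autosomal peaks, against 19316 in the other.

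Most of the regions were not far from H3K4me3. The distance from the region's edge to the nearest H3K4me3 peak was under 5 kb in 631 regions (41.1%, exact 95% interval 38.6 to 43.6), 5 to 50 kb in 765 (49.8%, 47.3 to 52.3) and over 50 kb in 140 (9.11%, 7.72 to 10.7). Intervals here and below cover counting error only. The median distance was 7116.5 bp, with quartiles of 2182.75 and 19101.25 bp and a range of 2 to 420677 bp. Within 500 bp of an H3K4me3 peak lay 121 regions (7.88%), within 1000 bp 213 (13.9%) and within 10 kb 911 (59.3%). Beyond 100 kb the set thinned out, since 96.9% of the regions lay nearer than that. Without H3K4me3 replicate 1 the share over 50 kb was 13.5% and the share under 5 kb 35.4%.

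Mll2 regions that lacked both Menin and H3K4me3 lay farther out. The 1536 regions with Menin had 41.1% of their number under 5 kb and 9.11% over 50 kb, against 26.6% (24.3 to 29.0) and 23.9% (21.7 to 26.2) of the 1436 regions with neither. The median distance was 7116.5 bp (6608 to 8096) with Menin and 16465.5 bp (14676 to 18192) with neither. Put the other way, Menin was called at 62.3% of the Mll2 regions without H3K4me3 that lay under 5 kb (59.2 to 65.3), at 51.8% of those at 5 to 50 kb (49.2 to 54.4) and at 29.0% of those over 50 kb (25.0 to 33.3). The shares ran down with distance, as a description only, since the same calls chose the regions. Of the 631 members under 5 kb, 101 had a Menin peak that itself overlapped H3K4me3. Over all distances Menin was called at 51.7% of the Mll2 regions without H3K4me3 (49.9 to 53.5) and at 95.9% of those with it.

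**Figure D1:**
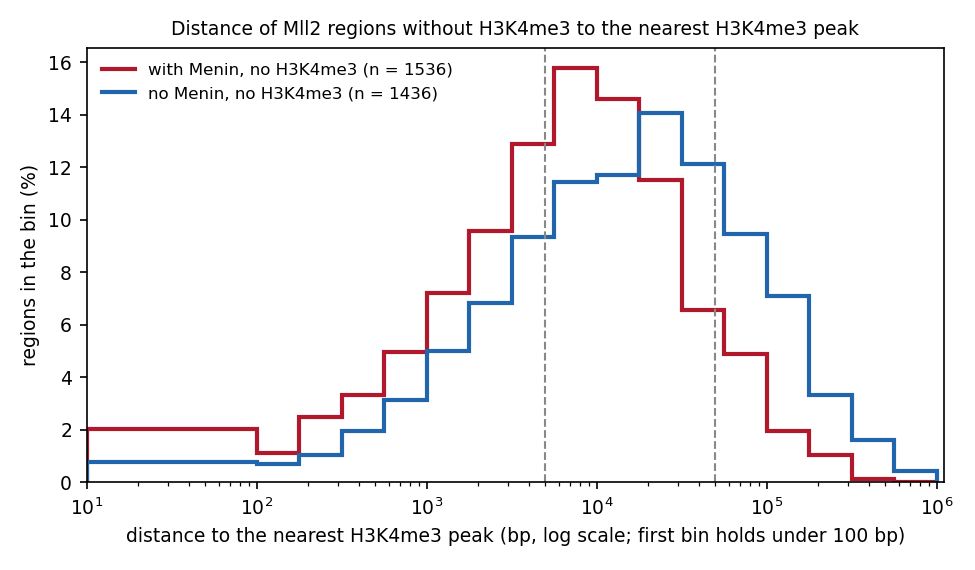
Percent of regions per bin of distance to the nearest H3K4me3 peak (bp, log scale), for Mll2 regions with Menin and no H3K4me3 and for Mll2 regions with neither; dashed lines stand at 5 and 50 kb. The curve of the 1536 regions with Menin lies left of that of the 1436 regions without it, with medians of 7116.5 and 16465.5 bp.

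The regions closest to the edge of the rule had median Mll2 folds near those of all members, but higher median Menin folds. The smallest gap was 2 bp, at chr11:68201366-68201889 (mm9, as are all coordinates here), where the fold enrichment was 7.46 with serum 9172, 7.34 with serum 9175 and 9.50 for Menin. Fold enrichments and scores are the authors' values of each peak. Just outside the rule, the smallest overlap was 9 bp, at chr2:153477109-153477966, with folds of 7.22, 7.28 and 12.92 in the same order. In all, 31 regions lay under 100 bp from an H3K4me3 peak, and 10 Mll2 regions with Menin overlapped one by under 100 bp. Their median Mll2 folds were close, 8.21 and 8.97 for the 31 inside and 8.21 and 8.56 for the 10 outside (serum 9172, then 9175). Their median Menin folds were 10.0 inside and 18.0 outside, against 8.79 in all 1536 regions and 11.92 in all Mll2 regions with Menin and H3K4me3.

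The regions were narrow and simple. Their median width was 812 bp (799 to 825), against 1341 bp (1332 to 1350) in Mll2 regions with Menin and H3K4me3 and 758 bp (748 to 768) in those with neither. Between 500 and 1500 bp fell 93.9% of them, and 23 were wider than 2000 bp. A single peak of each serum and a single Menin peak made up 1423 regions (92.6%). By distance the median widths were 839 bp under 5 kb, 790 bp at 5 to 50 kb and 854.5 bp over 50 kb, with no steady order by distance. The Menin peaks did narrow with distance, with median widths of 1025 bp (963 to 1091), 808 bp (785 to 850) and 695 bp (645 to 778).

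Mll2 was called at low enrichment in most of these regions. With serum 9172 the median fold was 8.33, against 15.66 in Mll2 regions with Menin and H3K4me3 and 8.21 in those with neither. With serum 9175 it was 9.10, against 17.93 and 8.97. The folds thus resembled those of Mll2 regions with neither mark. In the whole autosomal lists, the median member's fold stood above 29.9% of serum 9172 peaks and 30.2% of serum 9175 peaks. For Menin the median fold was 8.79 in the 1536 regions and 11.92 in those with H3K4me3, and 40.2% of all Menin peaks had a lower fold. In tags per kb of peak, which can be compared within a library only, the medians were 45.9 against 72.6 with serum 9172, 34.8 against 57.0 with serum 9175, and 40.9 against 61.0 for Menin, each time with the regions that had H3K4me3 second. The whole peaks held a median of 29, 27 and 36 tags in the 1536 regions (serum 9172, serum 9175, Menin), against 85, 77 and 97.

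The smallest peaks of these lists held 13, 13 and 11 tags. A MACS score of at least 100 was reached by 47.1% of the regions with serum 9172, 46.9% with serum 9175 and 53.8% with Menin, against 89.3%, 91.9% and 92.8% of Mll2 regions with Menin and H3K4me3. All 3 scores reached 100 in 291 regions (18.9%, 17.01 to 21.00), and all 3 folds reached 10 in 106 (6.90%, 5.68 to 8.29). The share of Mll2 regions with Menin that lacked H3K4me3 ran down steeply with the fold of serum 9175. It was 32.9% in the lowest of 10 equal groups by fold, 8.87% in the fourth and 0.0568% in the highest, where 1 of 1760 regions lacked H3K4me3. By serum 9172 the lowest and highest groups had 28.6% and 0.852%, with 0.341% in the ninth. By Menin fold they had 24.1% and 3.64%, a less steep course, with 64 regions in the highest group and 2.84% in the ninth. The 3 lowest groups held 81.4% of the members by serum 9175, 75.5% by serum 9172 and 59.8% by Menin.

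With Menin peaks that reached into H3K4me3 counted, distance to H3K4me3 was related to Menin enrichment more than to Mll2 enrichment. The median Mll2 folds under 5 kb, at 5 to 50 kb and over 50 kb were 8.85, 8.26 and 8.88 with serum 9172 and 9.10, 9.10 and 9.78 with serum 9175, with overlapping intervals. The median Menin folds were 9.41 (8.94 to 9.72), 8.13 (7.95 to 8.36) and 8.30 (7.75 to 8.94), higher under 5 kb than at 5 to 50 kb. The Menin values under 5 kb include 101 regions whose Menin peak also overlapped H3K4me3, with a median fold of 14.55. In the 530 others of that class it was 8.94, at the upper limit of the interval over 50 kb. The tags, shares and correlations below include the 101 regions and were not computed without them. The median tags of the Menin peak were 44, 33 and 27.5. A Menin fold of at least 20 was found in 65 regions, and 52 of them lay under 5 kb. That was 8.24% of the nearest class (6.22 to 10.7), against 1.57% at 5 to 50 kb (0.813 to 2.72) and 0.714% over 50 kb (0.0181 to 3.92). With serum 9175 a fold of at least 20 was reached by 0.951%, 1.70% and 5.00% of the 3 classes, on counts of 6, 13 and 7 regions. Across the 1536 regions Spearman's rho with distance was -0.20 for Menin fold, 0.05 for serum 9175 and -0.03 for serum 9172. These correlations run over regions of 1 library each and carry no p.

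**Figure D2:**
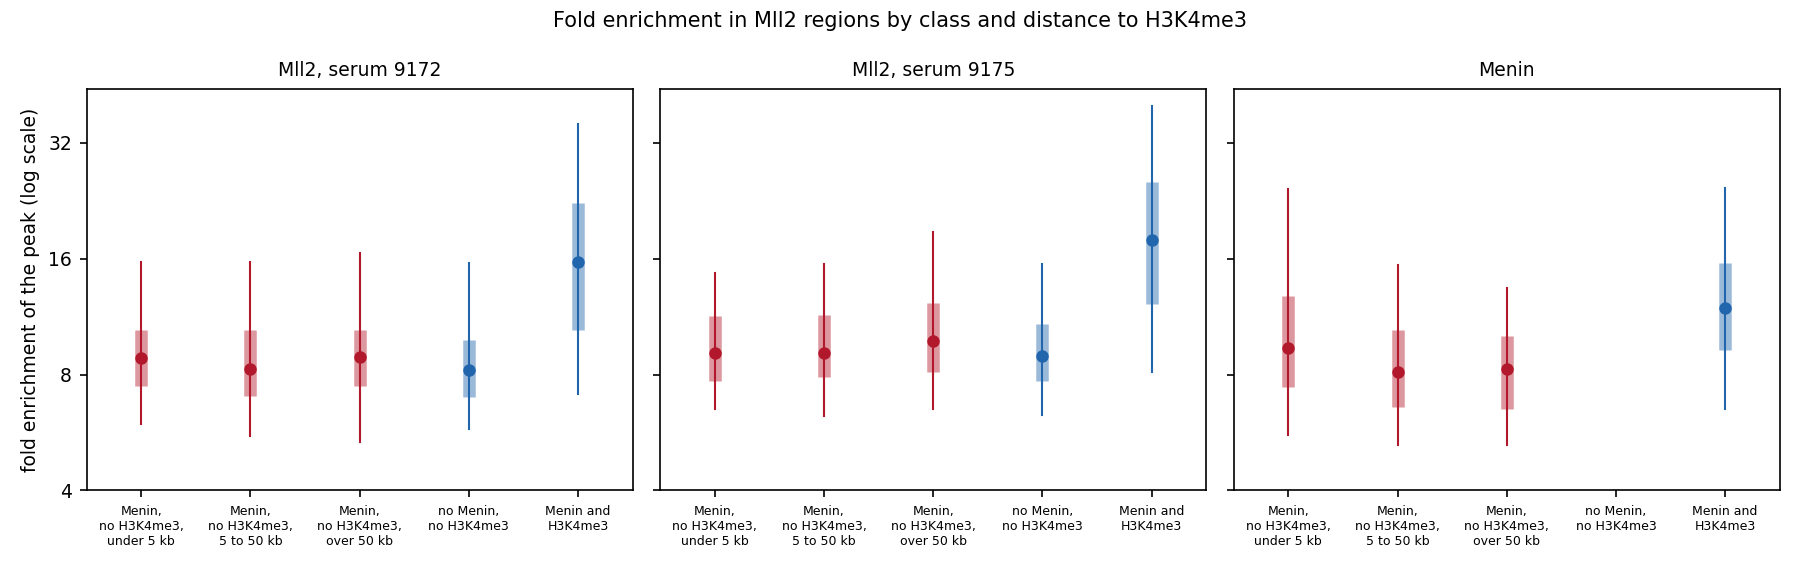
Fold enrichment of the strongest peak per region (log scale) with each Mll2 serum and with Menin, for the 3 distance classes of Mll2 regions with Menin and no H3K4me3, then for Mll2 regions with neither and with both; points are medians, thick bars the quartiles and thin lines the 5th to 95th percentiles. The distance classes have medians of 8.26 to 8.88 with serum 9172, against 15.66 where H3K4me3 was present.

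Some Menin peaks near H3K4me3 reached across into it. In 101 regions, all under 5 kb and 16.0% of that class (13.2 to 19.1), the Menin peak overlapped an H3K4me3 peak even though the Mll2 region did not. Those Menin peaks had a median width of 3328 bp and a median fold of 14.55, at a median distance of 473 bp between the Mll2 region and H3K4me3. In the 530 other regions under 5 kb the Menin peak was 931.5 bp wide with a fold of 8.94, at a distance of 2068.5 bp. The summit of such a broad peak can lie outside the Mll2 region. A Menin summit lay inside the Mll2 region in 81.8% of the members under 5 kb (78.5 to 84.7), in 89.5% at 5 to 50 kb (87.2 to 91.6) and in 90.7% over 50 kb (84.64 to 94.96), and in 95.6% of Mll2 regions with Menin and H3K4me3. The regions with H3K4me3 were wider, with a median of 1341 bp against 812 bp, which leaves more room for a summit inside. The part of width was not tested.

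**Figure D3:**
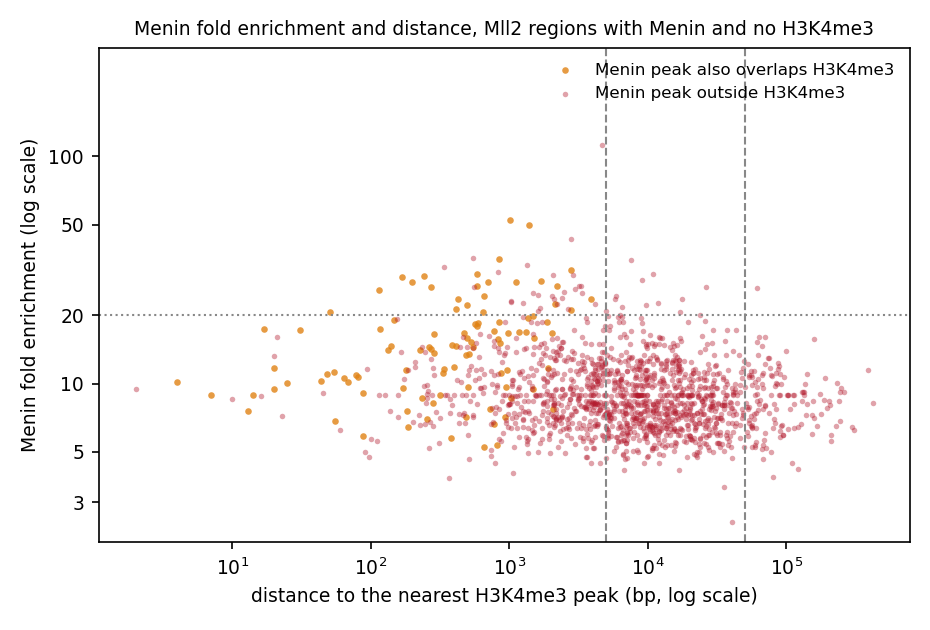
Menin fold enrichment against distance to the nearest H3K4me3 peak (both log scales), 1 point per region; orange points are the 101 regions whose Menin peak also overlapped H3K4me3, dashed lines stand at 5 and 50 kb and the dotted line at a fold of 20. Of the 65 points at or above 20, 52 lie left of 5 kb.

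The highest Menin fold belonged to a region that was also the fifth strongest by Mll2 under 5 kb. There, at chr17:86550029-86550890, the Menin fold was 111.77, on 419 tags, while the Mll2 folds were 30.75 with serum 9172 and 14.0 with serum 9175, on 97 and 33 tags. The nearest H3K4me3 peak lay 4697 bp away and had a fold of 80.37. The Menin summit was 78 and 14 bp from the summits of the sera. The next highest Menin fold, 52.16 on 1406 tags, belonged to chr8:123604242-123605295, where the sera reached 8.21 and 10.6. There the Menin summit lay 2930 and 2885 bp from the Mll2 summits, outside the Mll2 region. At chr2:74517388-74518241 the Menin fold was 49.58 on 740 tags and the Mll2 folds 4.90 and 5.06. There the summits were 1962 and 1953 bp apart. Of these 3 regions, then, only the first had its Menin summit at the Mll2 site.

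Over the whole set the summits of Mll2 and Menin lay close together. The rule asked for an overlapping Menin peak, and the nearest summit among such peaks was taken. Short distances are therefore partly set by the rule. The median distance from the serum 9175 summit to the nearest Menin summit was 121 bp (109 to 132), with quartiles of 45 and 290 bp, against 147 bp (143 to 151) in Mll2 regions with Menin and H3K4me3. From the serum 9172 summit it was 111 bp (100 to 122), against 149 bp (146 to 153). The summits of the 2 sera were 67 bp apart (62 to 72), against 75 bp (73 to 77). Within 100 bp of the serum 9175 summit there was a Menin summit in 45.5% of the 1536 regions (43.0 to 48.0) and in 38.9% of those with H3K4me3 (38.2 to 39.7). Within 500 bp the shares were 86.1% and 86.6%, close to each other. Narrower regions leave less room for summits to differ, and the part of width in this difference was not tested. By distance class the medians for serum 9175 were 130, 113 and 114.5 bp, with overlapping intervals. The Menin summit lay on the side of the nearest H3K4me3 peak in 53.3% of regions under 5 kb by serum 9175 (49.4 to 57.3) and in 55.5% by serum 9172 (51.5 to 59.4), and over 50 kb in 48.2% and 42.8%.

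**Figure D4:**
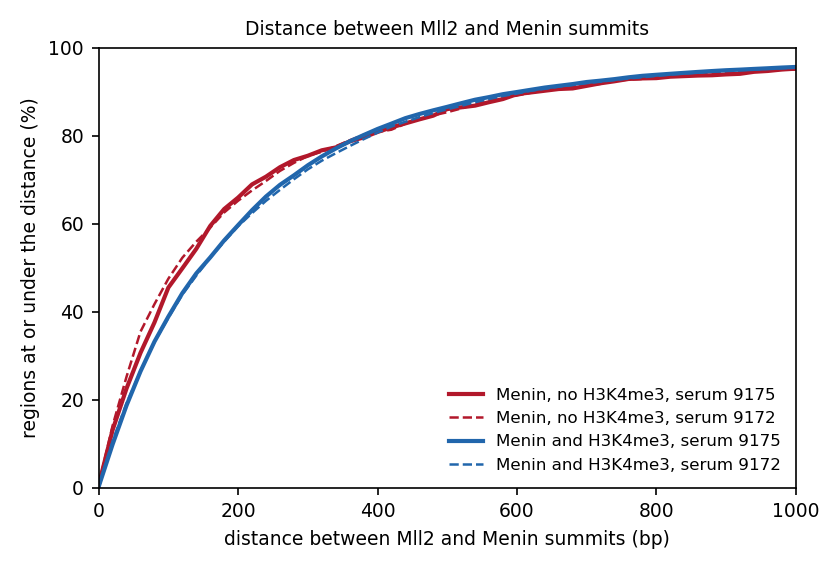
Cumulative percent of regions by distance between Mll2 and Menin summits (bp), for Mll2 regions with Menin and no H3K4me3 and for those with Menin and H3K4me3, with serum 9175 (solid) and serum 9172 (dashed). The curves of regions without H3K4me3 are higher at 100 bp, 45.5% against 38.9% with serum 9175, and stand at 86.1% against 86.6% at 500 bp.

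The sera ranked these weak regions with less likeness than the strong ones. Across the 1536 regions the folds of sera 9172 and 9175 had a Spearman rho of 0.40, and a Pearson r of 0.45 on the log2 scale. Across the 16062 regions with Menin and H3K4me3 rho was 0.82 and r was 0.81. The range of folds is narrower in the 1536 regions, and the Mll2 libraries share 1 input library. Menin fold was nearly unrelated to Mll2 fold among the members, with rho of 0.07 for serum 9172 and 0.09 for serum 9175, against 0.24 and 0.29 where H3K4me3 was present.

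The strongest Mll2 regions over 50 kb from H3K4me3 are given as candidate distal elements, a name that rests on distance alone since no other mark was used here. They were ranked by the geometric mean of the folds of both sera. The first, chr3:5860213-5860943, had folds of 30.07 and 41.29 with sera 9172 and 9175 and 5.79 for Menin, on 260, 260 and 211 tags, at 89148 bp from H3K4me3. Its tags per kb were high for its folds, as described below for sites of high background. The second, chr15:77949666-77950781, had folds of 23.12, 23.64 and 7.72 in the same order, on 97, 82 and 42 tags, at 52537 bp. The third, chr14:64300138-64300880, had folds of 16.41, 30.97 and 15.2, on 31, 52 and 21 tags, at 61215 bp, with the Menin summit 3 and 2 bp from those of the sera. In all 3 regions both Mll2 folds exceeded the medians of Mll2 regions with Menin and H3K4me3, while the Menin folds ran from 5.79 to 15.2. At chr2:5299945-5300709, 240091 bp from H3K4me3, the folds were 16.54, 29.17 and 8.40 and the Menin summit coincided with those of both sera. Its tags per kb were also high for its folds with serum 9172 and Menin. Tags per kb over fold were 11.1, 4.35 and 15.0 there, against medians of 5.30, 3.72 and 4.71 in the 1536 regions. At chr18:75759196-75760031, 94607 bp away, the folds were 34.7, 12.0 and 5.96.

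The farthest regions were weaker in part. At chr13:71595851-71596532, 420677 bp from H3K4me3, the folds were 9.70 with serum 9172, 6.52 with serum 9175 and 8.20 for Menin, on 33, 17 and 21 tags. At chr5:119505199-119506112, 388225 bp away, they were 12.68, 14.67 and 11.47, on 39, 32 and 43 tags. At chr16:93006593-93007477, 307253 bp away, they were 15.66, 21.19 and 6.26, on 37, 39 and 41 tags. The last of them had Mll2 folds at or above the medians of Mll2 regions with Menin and H3K4me3. The first was above the median of the 1536 regions with serum 9172 and below it with serum 9175 and Menin.

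The sera could differ at the strongest regions nearer to H3K4me3, as they did over 50 kb. Among the 5 strongest over 50 kb, serum 9175 had the higher fold in all but chr18:75759196-75760031. The strongest at 5 to 50 kb, chr4:116861918-116863482, had a fold of 51.47 with serum 9172 on 237 tags, 20.38 with serum 9175 on 101 tags and 7.95 for Menin on 11 tags, at 5890 bp. Its Menin summit was 716 and 693 bp from the Mll2 summits. At chr9:111191912-111192998, 15803 bp away, the folds were 43.27, 15.49 and 13.41, with a Menin summit 11 and 22 bp from those of the sera. Among the strongest under 5 kb, chr11:101503233-101504077 had 34.31, 16.3 and 11.52 at 185 bp, and chr7:29999669-30000420 had 38.79, 13.04 and 7.12 at 158 bp. In these 4, picked from the 5 strongest of each of these classes, the fold of serum 9172 was more than 2 times that of serum 9175. The same held for the others of these 5 strongest, apart from chr18:35917006-35917966, with 27.28 and 19.61, and the next region named. At chr15:84659626-84660416, the fourth strongest at 5 to 50 kb, the order was the other way, 19.39 with serum 9172 and 26.9 with serum 9175. Over all Mll2 regions with Menin, the highest of the 10 groups by serum 9172 held 15 members and the highest by serum 9175 held 1.

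The H3K4me3 regions next to the members had a lower median fold than H3K4me3 regions in general. Merged over both lists, they had a median fold of 19.7, against 23.8 over all 24929 autosomal H3K4me3 regions. By distance class it was 17.6 next to members under 5 kb, 23.0 at 5 to 50 kb, close to that of all, and 18.1 over 50 kb. Called in both H3K4me3 libraries were 74.1% of the nearest regions, counted once per member, and 73.6% of all. An Mll2 region of both sera and a Menin peak overlapped 70.0% of them, against 62.7% of all, and neither overlapped 9.90%, against 19.9% of all. These differences were not tested. The share with both was 74.8% next to members under 5 kb, 67.5% at 5 to 50 kb and 62.1% over 50 kb. A member's own Menin peak could count here where it reached into H3K4me3, as in 101 members, all under 5 kb. That raises the share of the nearest class and of all members by an amount that was not separated. Of the 631 members under 5 kb, 110 (17.4%, 14.6 to 20.6) had H3K4me3 within 5 kb on both sides. Of all 1536, 721 (46.9%) lay within 10 kb of an Mll2 region with Menin and H3K4me3.

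Most regions had no other member nearby. Another member lay within 10 kb of 205 regions (13.3%, 11.7 to 15.1) and within 50 kb of 529 (34.4%, 32.1 to 36.9). Of the 1436 Mll2 regions with neither Menin nor H3K4me3, 114 (7.94%, 6.59 to 9.46) had another of their own class within 10 kb. The share of the members depended on how they were called. It was 4.73% among 296 regions with Mll2 and Menin scores of at least 100, and 27.4% among 3872 regions with a peak of either serum. Chained at gaps of up to 10 kb, the 205 regions formed 95 clusters, of which 82 had 2 regions, 11 had 3 and 2 had 4. No H3K4me3 region lay inside 71 of the 95. Over 50 kb from H3K4me3, 9 of 140 regions (6.43%, 2.98 to 11.9) had another member within 10 kb. The regions far from H3K4me3 were thus mostly single.

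The 2 clusters of 4 regions and the longest of the 11 clusters of 3 each had an H3K4me3 region inside, while 6 of the 13 clusters of 3 or more had none. At chr4:140825945-140848181 there were 4 regions in 22237 bp, 1500 to 13620 bp from H3K4me3, with folds of 8.33 to 17.9 with serum 9172, 7.22 to 14.67 with serum 9175 and 6.15 to 13.41 for Menin. At chr8:123036999-123055867 there were 4 in 18869 bp, 521 to 2966 bp from H3K4me3, with folds of 7.45 to 15.66, 7.34 to 17.93 and 5.42 to 9.12 in the same order. At chr11:96193724-96215112 there were 3 in 21389 bp, 337 to 11873 bp from H3K4me3, with Mll2 folds of 7.46 to 10.44 and 10.6 to 11.41. The Menin folds of that cluster, 22.7, 26.74 and 32.51, were each above 20, a level that 65 of the 1536 regions reached.

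Chromosome 8 held more of these regions than any other autosome. Of its 1351 Mll2 regions, 184 were members (13.6%, 11.8 to 15.6), against 7.36% (6.99 to 7.75) on the other autosomes together and 4.12% to 9.25% on each of them. On chromosome 8 lay 12.0% of the members and 6.85% of all Mll2 regions. In the lowest of the 10 groups by serum 9175 fold, 47.1% of the Mll2 regions with Menin on chromosome 8 lacked H3K4me3 (40.2 to 54.1), against 31.0% (28.7 to 33.4) elsewhere. Under 5 kb from H3K4me3 lay 47.3% (39.9 to 54.8) of the chromosome 8 members, against 40.2% (37.6 to 42.9) of the others, at 5 to 50 kb 42.4% (35.2 to 49.9) against 50.8% (48.1 to 53.5), and over 50 kb 10.3% (6.33 to 15.7) against 8.95% (7.48 to 10.6). Their median distance was 5663.5 bp (4226 to 7590), against 7486 bp (6670 to 8335).

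Tag density differed on this chromosome too. At regions called in all 5 lists, tags per kb on chromosome 8 were 1.17 times those of the median autosome with serum 9172, 1.17 times with serum 9175, 1.23 times for Menin and 1.13 and 1.17 times for H3K4me3 replicates 1 and 3. Tags per kb divided by fold, a rough stand-in for the background against which MACS set each peak, were 1.10, 1.11, 1.35, 1.41 and 1.34 times the median autosome in the same order. The folds on chromosome 8 were 1.08 and 1.07 times the median autosome with sera 9172 and 9175, above the highest other autosomes at 1.05 and 1.03. For Menin they were 0.913 times the median, against 0.937 to 1.03 elsewhere. For H3K4me3 they were 0.821 times in replicate 1, against 0.929 to 1.06 elsewhere, and 0.914 times in replicate 3, within the 0.877 to 1.11 of the other autosomes. For 100 H3K4me3 peaks of replicate 1, chromosome 8 had 125 serum 9175 peaks, against 97.8 to 114 on other autosomes, and 239 Menin peaks, against 129 to 211. The part of tag density in the excess of members was not tested. Without chromosome 8 there were 1352 members, with 8.95% over 50 kb.

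**Figure D5:**
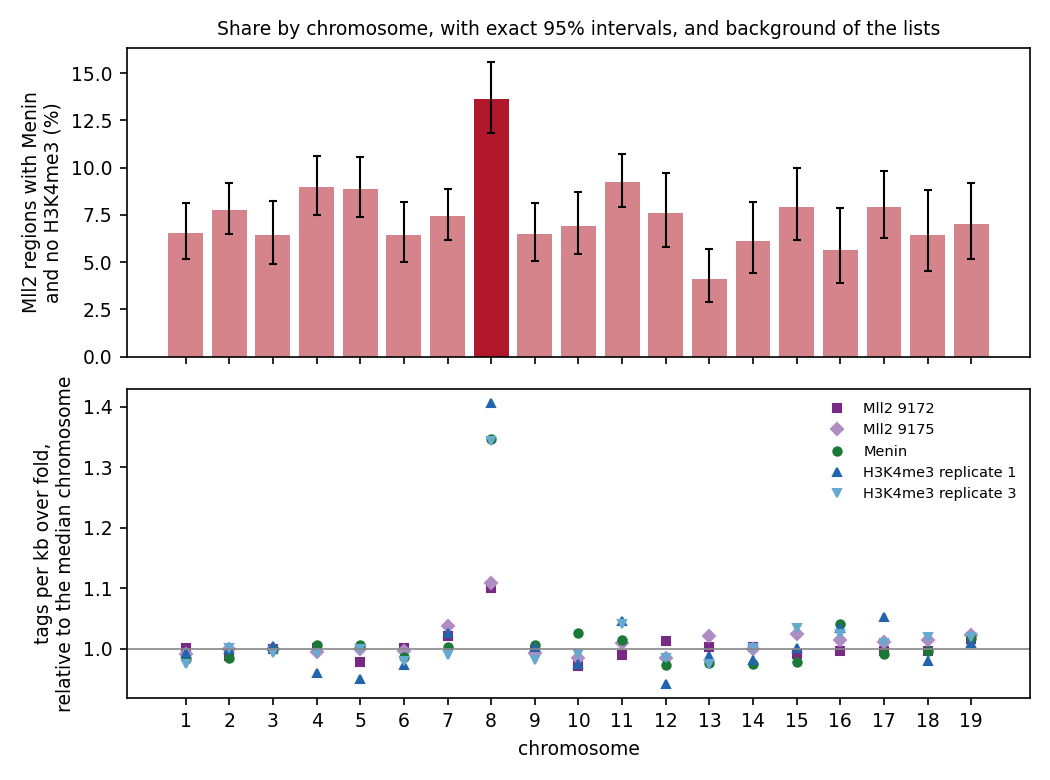
Top, percent of Mll2 regions of both sera that had Menin and no H3K4me3 on each autosome, with exact 95% intervals; bottom, tags per kb over fold in each list relative to the median autosome. Chromosome 8 stands at 13.6%, against 4.12% to 9.25% elsewhere, and its points in the lower panel run from 1.10 to 1.41.

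A few members sat on sites of high background. At 6 regions tags per kb over fold of serum 9172, serum 9175 or both exceeded 3 times that serum's median over the 19723 Mll2 regions. Menin was not part of this criterion. The most extreme, chr17:39979818-39985892, was the widest member at 6075 bp and held 9164, 9478 and 7174 tags with serum 9172, serum 9175 and Menin at folds of only 3.95, 7.29 and 2.47. At chr9:123370740-123371421 the tags were 138, 141 and 108 and the folds 9.60, 10.37 and 7.87. The strongest region over 50 kb, chr3:5860213-5860943, was also among the 6. It held the highest tags of that class with each antibody. Leaving out all 6 left 1530 regions, of which 8.95% lay over 50 kb.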

How the data were processed

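ChIP-seq peak lists of 5 libraries were analysed out of 90 samples in the series. No other assay or genotype of the series was used. The submitters' processing notes name Bowtie 0.12.9, MACS 1.4.2 and the build mm9. Per the file headers, the authors called peaks with MACS 1.4.2 in each library separately against 1 input, with a p cutoff of 1e-05 and 1 tag kept per position, and both Mll2 libraries had the same input. The deposited tag counts are whole numbers of ChIP tags per peak, not normalized. As deposited, fold enrichment is a ratio, of the tags at a peak to a background from MACS. Of the members' folds, 52.3% with serum 9172 and 54.1% with serum 9175 were whole multiples, within 0.0051, of what 1 tag is worth over the genome-wide background, so they rest on a median of 12 tags at the summit. The deposited score is minus 10 times the log10 of the MACS p, and the deposited false discovery rate, given in percent, did not exceed 0.95% in any list. It was not used as a filter.

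Peaks of both sera were merged where they overlapped, with Python 3.11.15, pandas 2.3.3, numpy 2.4.6 and scipy 1.17.1. In each region the peak with the highest fold was taken in each library, and fold, score, tags and tags per kb are those of that peak. Leaving out regions over 500 tags per kb used the highest tag density of any peak in the region. Distances run from edge to edge. Shares have exact Clopper-Pearson 95% intervals and medians have order-statistic 95% intervals. With 1 library per antibody these intervals do not measure the spread between cultures, and no test was made. Groups by fold are 10 equal ranks of the 17598 Mll2 regions with Menin. The merging, overlaps and distances were tested on simulated lists and checked with bedtools.

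Named regions are the 5 strongest by both sera in each distance class, the 3 with the highest Menin fold, the 3 farthest from H3K4me3, the 3 largest clusters, the 3 nearest to each side of the rule and those over 500 tags per kb, from which the text gives a selection. The sites of high background were added after the values were seen. The members and these lists were chosen with earlier results of these data known. No annotation or sequence of mm9 was used, so no region has a gene name, an annotation or a sequence.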

Additional observations from a re-analysis of the deposited data

How the results depend on the processing

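The count of 1536 regions stayed within 1.5 times of itself under 9 of the 12 other settings tried. It was 296 with Mll2 and Menin scores of at least 100, 3872 with a peak of either serum in place of both, and 1612 to 2540 when either H3K4me3 replicate was left out. Of the settings, 2 were chosen after seeing the data. Leaving out chromosome 8 gave 1352 regions and 8.95% over 50 kb, and leaving out the sites of high background gave 1530 and 8.95%. With scores of at least 100, the share under 5 kb was 46.6%, the share over 50 kb 6.08%, the median width 1018 bp, the summit distance 148 bp, the share with another member within 10 kb 4.73% and the serum 9175 density 40.6 tags per kb. With a peak of either serum, the width was 664.5 bp, the share with another member within 10 kb 27.4% and the density 32.8 tags per kb. With either H3K4me3 replicate left out, the share under 5 kb was 35.4% to 40.6%, the share over 50 kb 9.86% to 13.5%, the width 817 to 851 bp, the summit distance 122 to 125 bp, the share with another member within 10 kb 14.3% to 19.6% and the density 34.9 to 35.3 tags per kb. With H3K4me3 peaks widened by 1000 bp, 31.6% lay under 5 kb and 11.4% had another member within 10 kb. With a Menin summit required within 500 bp, these were 38.5% and 10.6%, and the summit distance was 100 bp. With Mll2 peaks merged up to 500 bp apart they were 37.9% and 11.01%, and the width was 831 bp. Measured from summit to summit, 33.9% lay under 5 kb. Within 50 kb in place of 10 kb, 34.4% had another member. The median serum 9175 peak was 755 bp wide. The causes of these shifts were not tested beyond what each setting itself does. The 50% overlap, chromosome X, and leaving out regions over 500 tags per kb moved none of the 7 measures outside its interval or the 1.5-fold limit. The fold enrichment planned in place of tags per kb is reported as its own value. No paired analysis was possible because no test was made and the libraries compared share at most 1 replicate number.

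At 11550409 to 21936546 kept tags, weak H3K4me3 cannot be told from none in peak lists, and the 1536 regions were weak in Mll2. The H3K4me3 libraries came from hairpin cells and those of Mll2 from wild-type cells. Only 1 library was made with each serum and with the Menin antibody.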

Other observations

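The fold steps of chromosome 8 differed from those of other autosomes. Of the 184 members on chromosome 8, 10.3% of the serum 9172 folds and 9.78% of the serum 9175 folds were whole multiples of what 1 tag is worth over the genome-wide background, against 58.1% and 60.1% of the folds of the 1352 members elsewhere. Their median folds were lower, 7.88 (7.42 to 8.21) against 8.88 (8.33 to 8.95) with serum 9172, 8.34 (8.07 to 8.97) against 9.18 (9.10 to 9.78) with serum 9175, and 7.45 (6.95 to 7.75) against 8.94 (8.75 to 8.94) for Menin. Their tags per kb were higher, 48.4 against 45.7, 36.7 against 34.5, and 45.5 against 40.2 in the same order, and their median width was 913.5 bp, against 799 bp. The share of Mll2 regions with neither Menin nor H3K4me3 was 9.10% on chromosome 8, within the 4.91% to 9.40% of the other autosomes.

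Including chromosome X added 5 regions.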
